A study of Homo sapiens with 18 samples.

Results

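The response of control-guide RKO-iCas9 cells to interleukin-1β (IL-1β) was read from 4 of the 18 libraries of a 3′ mRNA QuantSeq series, which counts transcripts by their polyadenylated ends. The libraries were sgAAVS1 IL-1β replicates 1 and 2, set against sgAAVS1 non-treated (NT) replicates 2 and 3. They were chosen by guide and treatment. The remaining library of either group was left out, as in the study, which removed such libraries after a principal component analysis. These were IL-1β replicate 3 and NT replicate 1. RKO cells come from a human colon carcinoma, and the iCas9 derivative makes Cas9 when doxycycline (dox) is added. In all groups Cas9 had been induced with 100 ng/mL dox for 5 days, so the NT cells carry the control guide and Cas9 as well. The sgAAVS1 guide directs Cas9 to the AAVS1 safe-harbour site, and the sgERH guide, used for comparison, targets the small RNA-processing factor ERH. Cells then received 10 ng/mL IL-1β, 25 ng/mL IFNγ or water (NT) for 4 h. The labels name biological replicates without saying whether they were separate cultures. The p-values rest on a spread estimated over the 15 libraries of all 6 groups that the study kept, not over the 4 alone. That spread may therefore be technical.

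IL-1β is an inflammatory cytokine that binds the receptor IL1R1 together with the accessory chain IL1RAP. The adaptor MYD88 and the IRAK kinases pass the signal to TRAF6 and to the TAK1 kinase complex, which holds the TAB proteins. TAK1 releases NF-κB dimers (RELA, RELB, REL, NFKB1 and NFKB2 products) from their inhibitors and activates MAP kinases that feed AP-1 (FOS and JUN proteins). In epithelial cells the best known NF-κB targets are neutrophil-attracting chemokines, survival genes, and inhibitors that close the loop by switching NF-κB off again.

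The 4 libraries held 5169042 and 5171305 counts with IL-1β, against 5208488 and 5986338 counts without treatment. Replicates were much closer to each other than to the left-out libraries. The chi-square per degree of freedom was 2.48 between the IL-1β pair and 3.44 between the NT pair, against 67.6 to 108 for pairs that included a left-out library. Of 12 colon epithelium markers, 7 had 0 reads in all 4 libraries. The keratins KRT8 and KRT18, the adhesion protein EPCAM and the intestinal factor CDX2 were detected. The summed level of the list was 135.4 and 119.5 CPM (counts per 1000000 counts of the library) with IL-1β and 135.5 and 144.5 CPM in NT. Endothelial markers were at 0 in all 4 libraries, and fibroblast markers reached at most 0.334 CPM. The leukocyte list summed to 407 and 401 CPM with IL-1β against 429 and 391 CPM in NT, nearly all of it the lysosomal protein CD68, while the other 11 markers together stayed under 1 CPM.

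The response was almost one-directional. Of 13370 genes tested, 84 rose (0.628%) and 1 fell (0.00748%), where a gene was called at an edgeR adjusted p of at most 0.05 and at least a 2-fold change (1 on the log2 scale). By the adjusted p alone 112 were higher (0.838%) and 11 lower (0.0823%). With IFNγ, against the same NT libraries, 80 genes rose and 0 fell, so this one-sidedness was not particular to IL-1β. The median log2 fold change over all genes was −0.02. In bulk counts a response of fewer cells and a smaller rise per cell cannot be told apart. The libraries of the 84 genes did not overlap between IL-1β and NT, and over all genes 27.9% lay above NT without overlap. Of the 84 symbols, 2 shared identical counts in all 18 libraries (AC068205.3 and RPL23AP63). TMEM35B and AC114490.2 had the same mean CPM, 14.4 with IL-1β and 3.79 in NT, so these too may be the same signal. Of the 84, 10 drew over 50% of their reads from multimapping, most of them RPL23A pseudogenes and clone-named transcripts. The values of these 10 are uncertain. With so few libraries the count of all called genes, higher and lower together, was unsteady. It was 18 without sgAAVS1 NT replicate 2, 38 without NT replicate 3, 55 without IL-1β replicate 1 and 20 without IL-1β replicate 2, where the remaining lone library borrows its spread from the other groups. It was 12 with all 18 libraries and 261 when sgERH IL-1β replicate 2, which belongs to neither group compared, was dropped, and the cause of that change was not tested.

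Neutrophil chemokines had the highest median fold change of the 12 lists. Of 7 chemokine genes tested, 4 rose and none fell, and the median log2 fold change was 4.61, against −0.02 over all genes. With CCL20, which had no reads in NT, set to its lower bound, the median was 4.04. The other 15 of the 22 chemokine genes on the list, including CXCL10, CXCL5 and CCL2, had 0 reads in all 4 libraries. The 4 risen genes lie together on chromosome 4.

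CXCL1, a ligand of the neutrophil receptor CXCR2 (chromosome 4, 73869393 to 73871308, + strand), had 25.7 and 27.5 CPM with IL-1β, against 0.384 and 0.334 CPM in NT. Both IL-1β libraries were far above both NT libraries. Its log2 fold change was 6.08 ± 0.48 (standard error; edgeR adjusted p = 3.86e-09). CXCL8 (interleukin-8, chromosome 4, 73740519 to 73743716) had 13.9 and 14.3 CPM with IL-1β and 0.576 and 0.501 CPM in NT (4.61 ± 0.53, edgeR adjusted p = 2.31e-06). CXCL3, a close relative of CXCL1, had 87 and 89 reads with IL-1β and 2 and 9 reads in NT (4.04 ± 0.38, edgeR adjusted p = 1.36e-07). These 3 genes were close to undetected in NT cells and clearly read in IL-1β cells. CXCL2, the remaining member of the cluster, rested on fewer reads, at 17 and 21 with IL-1β and 0 and 1 in NT (5.01 ± 1.09, edgeR adjusted p = 0.0193), and its call was lost when any single one of the 4 libraries was left out (adjusted p 0.0572 to 0.232). Without any single one of the 4 libraries 3 chemokines stayed called.

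CCL20, which attracts CCR6-bearing lymphocytes and dendritic cells, had 6 and 17 reads with IL-1β and 0 in both NT libraries. That is at least 8.30-fold higher, taking a floor of 3 reads over the NT group, but the gene just missed the threshold (edgeR adjusted p = 0.0538). The granulocyte growth factor CSF3 was the single riser among 12 cytokines and growth factors tested (median 0.25). It had 6 and 11 reads with IL-1β and 0 in both NT libraries, at least 6.13-fold higher (edgeR adjusted p = 0.0384), and its call too was lost without any one of the 4 libraries (adjusted p 0.0572 to 0.309). The cytokine LIF was at 6.38 and 12.2 CPM with IL-1β against 0.960 and 2.67 CPM in NT, and was not called (edgeR adjusted p = 0.187). IL6, a classical IL-1 target in other cell types, had 0 reads in all 4 libraries, which allows at most 3 reads per library, and CSF2 had 2 reads and 0 reads with IL-1β.

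**Figure D1:**
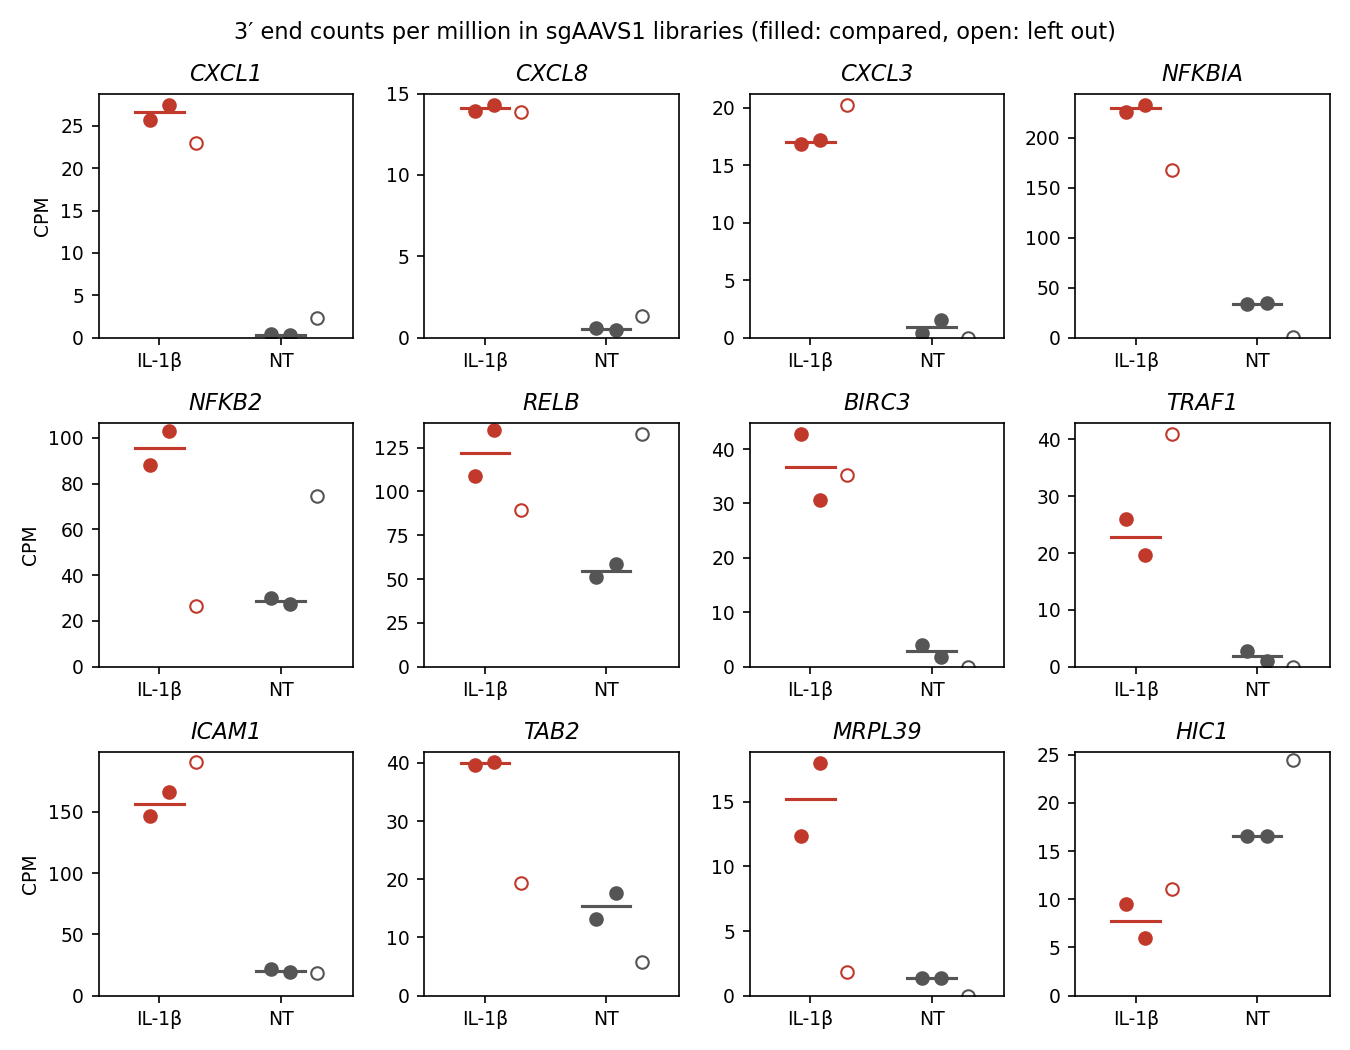
CPM (counts per 1000000, linear axes from 0) of 12 genes in sgAAVS1 libraries with IL-1β (red) and NT (grey). Filled points are the compared libraries, lines their mean, and open points the left-out library of each group. The compared libraries do not overlap for any gene drawn; the left-out IL-1β library lies near NT for MRPL39 (1.86 CPM) but not for CXCL8 (13.9 CPM).

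NF-κB subunits and inhibitors formed the list with the most risers, 7 of 20 tested with none lower, and its median was 0.57. NFKBIA, which encodes IκBα (chromosome 14, 35401079 to 35404749, − strand), had 226 and 233 CPM with IL-1β and 33.2 and 34.6 CPM in NT, and rose by 2.71 ± 0.23 on the log2 scale (edgeR adjusted p = 1.28e-06). The call was lost with all 18 libraries (3.16, adjusted p = 0.301). ZC3H12A (Regnase-1), an RNase that degrades inflammatory mRNAs, rose by 2.18 ± 0.21 (edgeR adjusted p = 1.36e-07). NFKBIZ (IκBζ), a nuclear IκB protein that steers NF-κB at a subset of promoters, rose by 1.17 ± 0.18, a call that was lost without NT replicate 3 (adjusted p = 0.0504).

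Among the subunits, NFKB2 (p100/p52) had 88.2 and 103 CPM with IL-1β and 30.1 and 27.4 CPM in NT (1.68 ± 0.16). NFKB1 (p105/p50) followed with 1.54 ± 0.15, REL (c-Rel) with 1.15 ± 0.25 and RELB with 1.10 ± 0.14. RELA, the subunit that carries much of the acute response at the protein level, stood at 130 and 122 CPM with IL-1β against 132 and 125 CPM in NT (−0.08 ± 0.12, edgeR adjusted p = 0.861). Of the subunit calls, that of REL was lost without any one of the 4 libraries (adjusted p 0.117 to 0.223), and RELB fell under the fold threshold without IL-1β replicate 2 (0.93). The deubiquitinase TNFAIP3 (A20), a feedback inhibitor, was at 5.03 and 6.19 CPM with IL-1β and 0.960 and 1.00 CPM in NT, a log2 fold change of 2.44 ± 0.66 that missed the threshold (edgeR adjusted p = 0.0714; DESeq2 adjusted p = 0.0366). NFKBIE (IκBε) had 18.2 and 21.3 CPM with IL-1β and 18.2 and 19.7 CPM in NT.

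Survival genes gave 3 risers of 16 tested (median 0.34). BIRC3, an inhibitor of apoptosis that ubiquitinates signalling partners (chromosome 11, 102317484 to 102339403), had 42.8 and 30.6 CPM with IL-1β against 4.03 and 1.84 CPM in NT (3.61 ± 0.35, edgeR adjusted p = 3.03e-07). Its binding partner TRAF1 had 25.9 and 19.7 CPM with IL-1β against 2.69 and 1.00 CPM in NT (3.60 ± 0.36, edgeR adjusted p = 2.56e-07). SOD2, the mitochondrial superoxide dismutase, rose by 1.32 ± 0.17 at a much higher level, 101 and 109 CPM with IL-1β against 39.4 and 41.8 CPM in NT. Other antiapoptotic genes stayed near their NT values, with XIAP at 0.15 ± 0.27, BCL2L1 (BCL-XL) at 0.12 ± 0.16 and MCL1 at 0.07 ± 0.13. BCL2A1, a BCL2 relative, was at 0.52 ± 0.14 (edgeR adjusted p = 0.0697). The stress gene IER3 stood at 0.30 ± 0.14 (edgeR adjusted p = 0.356), but 100% of its reads were multimapping. The 3 survival risers stayed called without any single one of the 4 libraries.

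To show the DNA next to the start sites of the risen chemokine, NF-κB and survival genes, their promoters were searched for the κB motif, the site recognised by NF-κB dimers (10 bases, both strands, in the 250 bases before the RefSeq start; matches on opposite strands may overlap). Promoters of 13 of the 14 genes were in the RefSeq table (build GRCh38.p14), and 8 had a match. These windows are given 5′ to 3′ on the strand of the gene, with 20 bases on either side and the match in capitals. They lie at chr4:73869294-73869344 (CXCL1, + strand), chr4:74099243-74099293 (CXCL2, − strand), chr4:74038738-74038788 (CXCL3, − strand), chr11:102317265-102317378 (BIRC3, + strand), chr14:35404801-35404850 (NFKBIA, − strand), chr4:102501290-102501339 (NFKB1, + strand), chr3:101827747-101827796 (NFKBIZ, + strand) and chr2:60881507-60881557 (REL, + strand).
CXCL1: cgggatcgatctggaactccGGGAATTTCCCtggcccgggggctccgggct
CXCL2: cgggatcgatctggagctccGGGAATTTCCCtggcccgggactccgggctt
CXCL3: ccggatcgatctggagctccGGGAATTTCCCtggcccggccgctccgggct
BIRC3: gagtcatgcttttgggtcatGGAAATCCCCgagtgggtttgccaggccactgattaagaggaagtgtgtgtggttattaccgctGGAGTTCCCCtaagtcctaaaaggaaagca
NFKBIA: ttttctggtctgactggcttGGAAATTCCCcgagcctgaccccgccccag
NFKB1: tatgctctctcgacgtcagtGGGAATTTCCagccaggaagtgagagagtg
NFKBIZ: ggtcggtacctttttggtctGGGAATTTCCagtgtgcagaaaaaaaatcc
REL: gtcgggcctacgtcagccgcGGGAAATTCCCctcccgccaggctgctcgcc

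The matches of CXCL1, CXCL2 and CXCL3 share the same capitals and begin at −79, −78 and −79 relative to the start. Of all 27305 promoters in the table, 5.05% held a match. CXCL8, TRAF1, ZC3H12A, NFKB2 and SOD2 had none in this window, which says only that these letters are not there. The AP-1 motif TGANTCA was in 6.60% of all promoters, 3.62% of those of genes tested and 3.03% of those of all risen genes. A match is a description of the letters and was not tested for binding.

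Adhesion molecules and TNF receptor family genes gave 3 risers of 20 tested (median 0.20). ICAM1, the ligand of leukocyte integrins (chromosome 19, 10271093 to 10286615), had the smallest p of all genes. It was at 147 and 166 CPM with IL-1β and at 21.7 and 19.4 CPM in NT, and rose by 2.88 ± 0.16 on the log2 scale (edgeR adjusted p = 1.29e-12). The TNF-induced gene TNFAIP2 had 55.7 and 64.4 CPM with IL-1β and 8.06 and 12.7 CPM in NT (2.47 ± 0.26). The immunoglobulin-family protein CD83 rose by 1.33 ± 0.27 (edgeR adjusted p = 0.0101), a call that was lost without NT replicate 2, NT replicate 3 or IL-1β replicate 2 (adjusted p 0.140 to 0.177). Under the fold threshold but past the adjusted p were the death receptor TNFRSF10B (0.92 ± 0.20), the costimulatory receptor CD40 (0.76 ± 0.19) and the syndecan SDC4 (0.72 ± 0.14).

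Few genes of the IL-1 pathway passed the test. Of 29 signalling components tested, 1 rose and none fell (9 at an unadjusted p under 0.05, 2 of them lower), and the median was 0.02. The riser was TAB2, the adaptor that couples ubiquitin chains to TAK1, with 39.7 and 40.2 CPM with IL-1β against 13.2 and 17.7 CPM in NT (1.31 ± 0.24, edgeR adjusted p = 0.00586). Its call was lost without NT replicate 2 (adjusted p = 0.169) or IL-1β replicate 2 (adjusted p = 0.101). The receptor IL1R1 was barely read, at 4 and 4 reads with IL-1β and 2 and 0 reads in NT, and was not tested. IL1RAP had 3.48 and 3.29 CPM with IL-1β and 3.26 and 2.84 CPM in NT, so both receptor chains were of low count in these libraries. Downstream, MYD88 stood at 0.80 ± 0.28 (edgeR adjusted p = 0.192), TRAF6 at 1.05 ± 0.35 (edgeR adjusted p = 0.173), the TAK1 kinase gene MAP3K7 at 0.19 ± 0.16 and IRAK1 at 0.01 ± 0.13. IRAK2, a kinase that sustains IL-1 signalling, had 12 and 9 reads with IL-1β and 4 and 0 reads in NT (2.37 ± 0.93, edgeR adjusted p = 0.268). MAP3K8 (TPL2), which links NF-κB to the ERK pathway, was higher by 1.48 ± 0.39 without passing (edgeR adjusted p = 0.0611).

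AP-1 and immediate-early factors gave 1 riser of 24 tested (median 0.14). FOS had 4.45 and 7.35 CPM with IL-1β and 1.73 and 1.17 CPM in NT (1.98 ± 0.47, edgeR adjusted p = 0.0367), and lost its call without NT replicate 2, NT replicate 3 or IL-1β replicate 2 (adjusted p 0.167 to 0.447). JUNB passed the adjusted p only (0.86 ± 0.20), as did the small MAF factor MAFF (0.66 ± 0.16). The most abundant members stood close to NT at this time, with JUN at 675 and 727 CPM with IL-1β against 580 and 656 CPM in NT (0.13 ± 0.17), EGR1 at 0.14 ± 0.11 and FOSL1 at −0.07 ± 0.15. The MAP kinase and mRNA-decay feedback list had no riser among 18 tested (median 0.20, with 3 at an unadjusted p under 0.05). The phosphatase DUSP1 was at −0.49 ± 0.32 and the mRNA-decay factor ZFP36 at 1.67 ± 0.54 (edgeR adjusted p = 0.150). The list member SOCS1 had 13 reads over the IL-1β libraries and 0 in NT, at least 4.69-fold higher, and was not called (edgeR adjusted p = 0.0728). None of the 10 matrix protease and plasminogen genes tested passed (2 at an unadjusted p under 0.05), and PLAU (urokinase) stood at 2.71 and 3.48 CPM with IL-1β against 0.192 and 0.501 CPM in NT (edgeR adjusted p = 0.127). None of 4 inflammatory enzyme and acute-phase genes tested passed either (3 at an unadjusted p under 0.05, and 1 called by DESeq2), with GCH1, the first enzyme of tetrahydrobiopterin synthesis, at 1.12 ± 0.30 (edgeR adjusted p = 0.0611). PTGS2, SAA1 and LCN2 had 0 reads in all 4 libraries. Housekeeping genes had no call among 16 (median −0.05; 0 at an unadjusted p under 0.05), and GAPDH was at −0.03 ± 0.13.

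**Figure D2:**
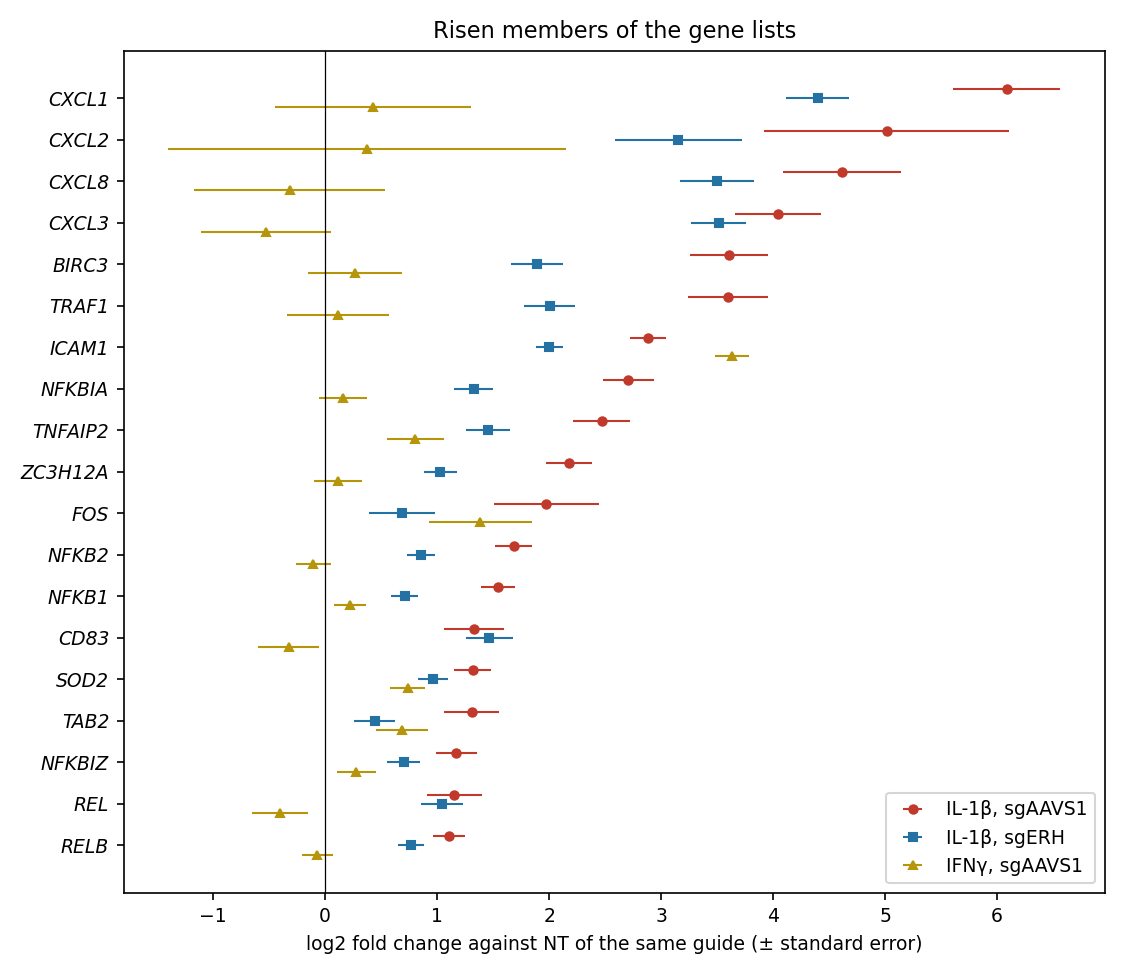
Log2 fold change against NT of the same guide, with bars of 1 standard error, for 19 list members that rose with IL-1β in sgAAVS1 cells (CSF3, with 0 reads in NT, is not drawn): IL-1β in sgAAVS1 (red circles), IL-1β in sgERH (blue squares) and IFNγ in sgAAVS1 (gold triangles). CXCL1 stands at 6.08, 4.40 and 0.43 on these 3 measures, and ICAM1 at 2.88, 2.00 and 3.63.

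IL-1β and IFNγ act through different pathways, and a direct test of IL-1β against IFNγ in sgAAVS1 cells asked which of the risen genes were higher with IL-1β than with the other cytokine. The NT libraries are not part of that contrast, although they enter the filter, the scaling and the spread of the fit. Over all genes 27 were higher with IL-1β (0.202%) and 58 lower (0.434%) than with IFNγ. Among the 84 risen genes, 21 were called higher with IL-1β. These were CXCL1, CXCL2, CXCL3, CXCL8, CSF3, BIRC3, TRAF1, NFKBIA, ZC3H12A, NFKB1, NFKB2, REL, RELB, TNFAIP2, CD83, and, outside the lists, the GTP-binding protein GTPBP2, the B-cell factor POU2F2 (Oct-2), the cell-cycle kinase CDK6, the membrane-rupture protein NINJ1, the calcium-regulated factor NFATC1 and the endocytic recycling protein EHD1. Of the 21, 15 were members of the lists, against 5 of the other 63. The lists were chosen with earlier results of these data known, so these counts are a description only.

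The 21 genes had a median log2 fold change of 2.18 with IL-1β and 0.12 with IFNγ, both against the same NT libraries. NFKBIA, for instance, was higher with IL-1β than with IFNγ by 2.55 (edgeR adjusted p = 1.76e-07). The other 63 had medians of 1.67 with IL-1β and 1.01 with IFNγ, again against shared NT libraries. ICAM1 belonged to these 63, at 2.88 ± 0.16 with IL-1β and 3.63 ± 0.15 with IFNγ. So did 2 long noncoding RNAs, LINC02605 (4.06 and 5.03 CPM with IL-1β, 0.576 and 0.501 CPM in NT) and AC083837.1 (16 and 14 reads with IL-1β, 0 in both NT libraries, at least 10.8-fold higher). Both calls were lost without NT replicate 2 or NT replicate 3, and that of LINC02605 also without IL-1β replicate 2 (adjusted p 0.0994 to 0.140 for LINC02605 and 0.0504 to 0.0591 for AC083837.1). Of the 26 tested members of the interferon response list none rose with IL-1β (median 0.16; 6 at an unadjusted p under 0.05), and 18 were lower with IL-1β than with IFNγ. IRF1, a leading interferon-induced factor, stood at 0.42 ± 0.15 with IL-1β (edgeR adjusted p = 0.196).

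**Figure D3:**
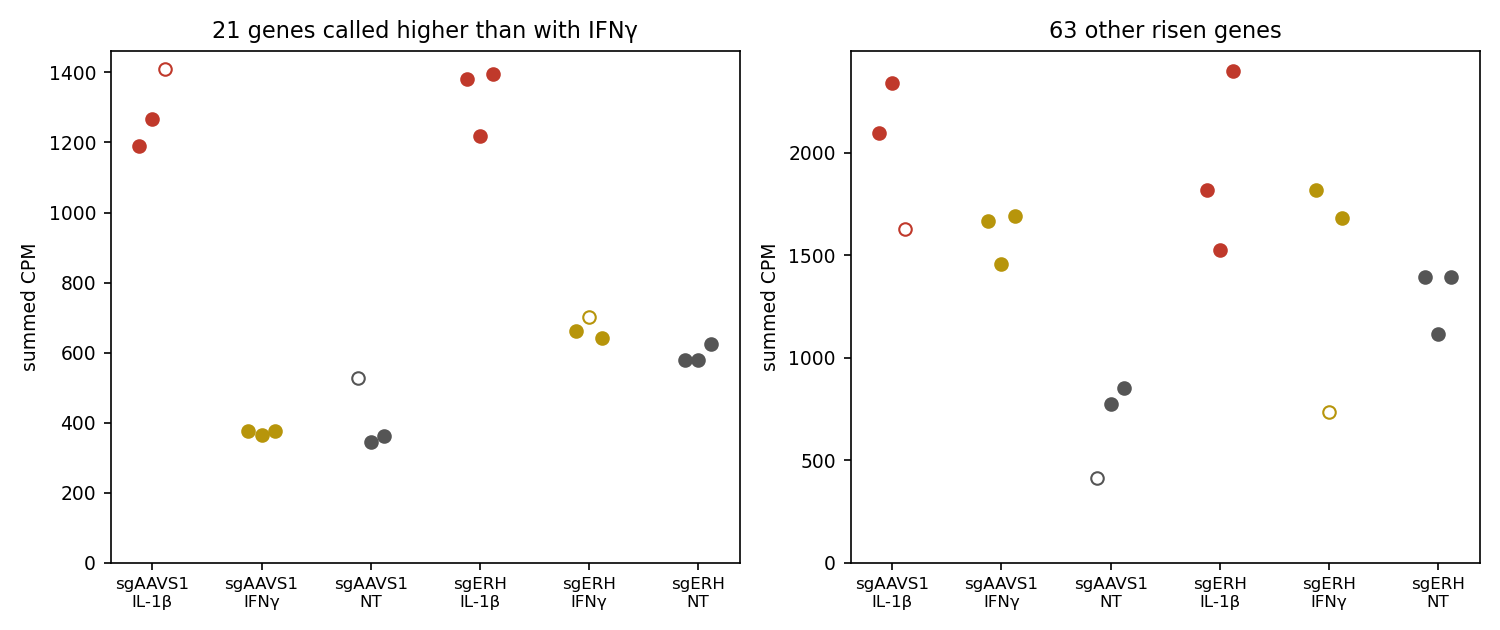
Summed CPM (counts per 1000000; linear axes from 0) over the 21 genes called higher with IL-1β than with IFNγ (left) and over the other 63 risen genes (right), in each of the 18 libraries by guide and treatment; open points are the 3 libraries left out. The 21 genes sum to 1190 and 1268 CPM in the compared sgAAVS1 IL-1β libraries and to 344 and 361 CPM in the NT libraries.

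Summed per library, the 21 genes reached 1190 and 1268 CPM with IL-1β and 344 and 361 CPM in NT. With IFNγ in sgAAVS1 they summed to 365 to 377 CPM in 3 libraries, close to NT. The 63 genes summed to 2098 and 2342 CPM with IL-1β, against 776 and 854 CPM in NT. With IFNγ they summed to 1459 to 1690 CPM. The 2 sets therefore differ in the IFNγ libraries, which is what the direct test selected on.

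Most of the 63 genes were on none of the lists. The largest fold changes among them after AC083837.1 were those of MRPL39, a protein of the mitochondrial ribosome (chromosome 21, 25585656 to 25607517), and LINC02605. MRPL39 had 64 and 93 reads with IL-1β, 27 to 33 reads with IFNγ and 7 and 8 reads in NT (3.43 ± 0.53 over NT, edgeR adjusted p = 6.82e-04). The call was lost without NT replicate 2 (adjusted p = 0.0596). FASTKD3, a mitochondrial RNA-binding protein, rose by 2.85 ± 0.63, FBXO5 (EMI1), an inhibitor of the anaphase-promoting complex, by 2.64 ± 0.45, SLC35A5, of the nucleotide-sugar transporter family, by 2.63 ± 0.66, and SELENOI, an ethanolamine phosphotransferase, by 2.55 ± 0.60. These calls too were lost without single libraries. That of FBXO5 was lost without NT replicate 2 (adjusted p = 0.0978). Those of FASTKD3 and SLC35A5 were lost without NT replicate 2 or either IL-1β library (adjusted p 0.104 to 0.285 for FASTKD3 and 0.156 to 0.372 for SLC35A5), and that of SELENOI without any one of the 4 libraries (0.0952 to 0.342). More abundant members were CCNH, the cyclin of the CDK-activating kinase (29.8 and 29.8 CPM with IL-1β, 9.22 and 8.85 CPM in NT), IL6ST (gp130), the shared receptor chain of the IL-6 family (1.52 ± 0.28), and the redox protein TXN (400 and 414 CPM with IL-1β, 158 and 195 CPM in NT, 1.16 ± 0.18). INSIG1, which restrains sterol synthesis, rose by 1.23 ± 0.17, the protein C receptor PROCR by 1.06 ± 0.18 and the coagulation inhibitor TFPI by 1.01 ± 0.22. Of these, INSIG1 stayed called without any single one of the 4 libraries. The call of TXN was lost without NT replicate 2 (adjusted p = 0.0786), and that of PROCR without NT replicate 2 or IL-1β replicate 2 (0.0831 to 0.123). CCNH and IL6ST lost theirs without either NT library or IL-1β replicate 2 (adjusted p 0.0648 to 0.129 for CCNH and 0.0742 to 0.171 for IL6ST), and TFPI without any one of the 4 libraries (0.0720 to 0.285). CDK7, the partner of CCNH, was called as well, but 98% of its reads were multimapping and its call was lost without any one of the 4 libraries.

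The same treatment in sgERH cells, read from 3 IL-1β and 3 NT libraries that share none with the sgAAVS1 comparison, gave a second measurement of these genes in cells with the ERH guide. Over all genes 36 rose (0.269%) and 3 fell (0.0224%) in sgERH. Of the 84 genes, 16 rose in sgERH too, which is 19.0% of the sgAAVS1 risers and 44.4% of the sgERH risers. Of the 21 genes higher with IL-1β than with IFNγ, 13 rose in sgERH, and all 21 had a log2 fold change above 0, as did 52% of all genes tested. Of the other 63, 3 rose in sgERH (ICAM1, LINC02605 and AC083837.1) and 55 were above 0. The median log2 fold change of the 21 was 2.18 in sgAAVS1 and 1.33 in sgERH. That of the 63 was 1.67 in sgAAVS1 and 0.38 in sgERH, where the median of all genes was 0.01. Both sets were chosen on their sgAAVS1 fold change, so smaller medians in sgERH were favoured in advance and do not measure a difference between guides. MRPL39, the largest of the protein-coding genes among the 63, was at 0.36 in sgERH (edgeR adjusted p = 0.754), with 4.25, 3.10 and 7.38 CPM with IL-1β and 2.16, 1.87 and 7.35 CPM in NT, which overlap.

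No gene was called by edgeR for a difference between guides in its IL-1β response (0 of 13370, 0%), while DESeq2 called 2. By edgeR 1487 were at an unadjusted p under 0.05. With so few libraries the lack of calls does not show that the responses were equal. Without sgERH IL-1β replicate 2 there were 5 calls. The fold changes of the 2 guides are thus values side by side. For CXCL1 the difference (sgERH minus sgAAVS1) was −1.69, for NFKBIA −1.38 and for RELB −0.34. For CD83 it was 0.13. In the libraries of the fit, the summed levels without treatment did not overlap between guides. The 21 genes summed to 344 and 361 CPM in sgAAVS1 NT, against 578 to 625 CPM in sgERH NT. In the left-out sgAAVS1 NT replicate 1 the sum was 528 CPM. The 21 genes were chosen by a rise over the compared sgAAVS1 NT libraries, and the share of all genes without overlap between guides was not counted. With IL-1β the 21 genes summed to 1190 and 1268 CPM in sgAAVS1 and to 1219 to 1394 CPM in sgERH. The 63 genes summed to 2098 and 2342 CPM in sgAAVS1 IL-1β and to 1527 to 2399 CPM in sgERH IL-1β, against 1115 to 1397 CPM in sgERH NT.

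**Figure D4:**
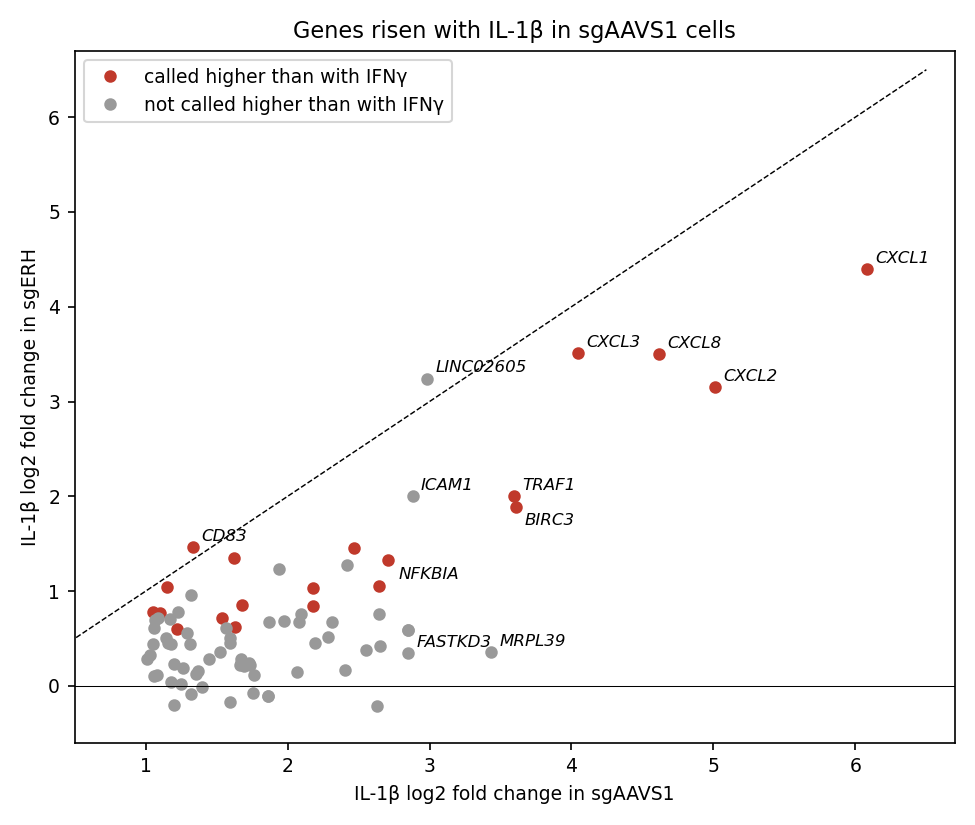
IL-1β log2 fold change in sgAAVS1 cells (x axis) and in sgERH cells (y axis) for 82 of the 84 genes that rose in sgAAVS1 cells, with a dashed line of equal response; CSF3 and AC083837.1, at 0 reads in sgAAVS1 NT, are not drawn. Genes called higher with IL-1β than with IFNγ are red, the others grey, and MRPL39 stands at 3.43 and 0.36.

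The 2 sets were also read in the left-out libraries. In the left-out IL-1β replicate 3, a deeper library of 11821239 counts, 18 of the 21 genes and 45 of the 63 were above both compared NT libraries, as were 41.1% of all genes tested. Both sets were chosen for a rise over these same NT libraries, so a higher share than that of all genes was favoured in advance. The summed level in IL-1β replicate 3 was 1409 CPM for the 21 and 1630 CPM for the 63. That is above both compared IL-1β libraries for the 21 and below both for the 63. In the left-out NT replicate 1, with 3811492 counts, 20 of the 63 genes and 5 of the 21 had 0 reads, as did 9.21% of all genes tested. The 63 summed to 415 CPM there, below the compared NT libraries, and the 21 to 528 CPM, above them. NFKBIA had 1 read in that library, against 173 and 207 reads in the compared NT libraries, while RELB, at 133 CPM, stood between the compared IL-1β libraries (109 and 135 CPM). With all 18 libraries in the fit, 8 of the 21 and 3 of the 63 were still called. Whether the state of the libraries has a part in the change of the 63 genes was not tested.

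Across 14 alternative settings, 8 of the 84 genes were called in each (CXCL1, CXCL3, CXCL8, BIRC3, TRAF1, NFKB1, ICAM1 and TNFAIP2), and 7 of these 8 belong to the 21. The median number of settings in which a gene was called was 11 for the 21 and 7 for the 63. SOD2 and ZC3H12A were called in 13. The 21 had passed a second test that used the same IL-1β libraries. Steadier calls for them across these settings were therefore favoured in advance. Without any single one of the 4 compared libraries 11 of the 21 and 3 of the 63 stayed called. The 3 were ICAM1, INSIG1 and SOD2. Outside the lists, NINJ1 stayed called in each of these fits. GTPBP2 and CDK6 lost their calls without either NT library or IL-1β replicate 2, and POU2F2 and NFATC1 without NT replicate 2 or either IL-1β library (adjusted p 0.0562 to 0.322 over the 4 genes). EHD1 fell under the fold threshold without IL-1β replicate 2.

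The single gene that fell was HIC1, a transcriptional repressor on chromosome 17 (2054154 to 2063241). Over all genes 19.2% lay below NT without overlap. HIC1 had 9.48 and 5.99 CPM with IL-1β, against 16.5 and 16.5 CPM in NT (log2 fold change −1.14 ± 0.27, edgeR adjusted p = 0.0334). Its call was lost without any one of the 4 libraries (adjusted p 0.0528 to 0.475). In sgERH its log2 fold change was 0.31 (edgeR adjusted p = 0.530), and IFNγ gave −0.94 in sgAAVS1 against the same NT libraries. ERH, which is not targeted in these cells, had 515 and 580 CPM with IL-1β and 576 and 592 CPM in NT (−0.14 ± 0.13).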

How the data were processed

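3′ mRNA QuantSeq libraries were made from RKO-iCas9 cells. Trim Galore 0.6.2 and FastQC 0.11.8 are named in the submitters' processing notes. Reads were aligned by the authors to GRCh38 using SlamDunk, counted in 3′ end windows and summed by gene symbol. Raw read counts were deposited, with multimapping reads counted separately. Libraries held 4987127 to 5986338 counts in the 15 used. Window counts measure transcript ends, and genes with many multimapping reads are uncertain. Counting floors (3 reads) cover counting error only.

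Counts were tested with edgeR 4.0.16 (R 4.3.3; robust quasi-likelihood F test, TMM, filterByExpr) in 1 model of the 6 groups over the 15 libraries that the study kept, with Benjamini-Hochberg adjustment over 13370 genes. The common biological coefficient of variation was 12.6%. The fit was tested on simulated data in which all genes had the common spread. For IL-1β in sgAAVS1, 45% of 100 genes changed 2-fold were called, and 72% passed the adjusted p. Of 100 genes changed 4-fold, 96% were called. CPM are counts per 1000000 counts of the library without TMM scaling.

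Named genes were the 20 highest and 10 lowest called fold changes with at most 50% multimapping reads, every called member of the 12 lists, and a fixed panel; other genes were chosen after their values were seen. The members and lists were chosen with earlier results of these data known. Alternatives were DESeq2 1.42.0 and its size factors, no filter, the compared groups alone, the left-out libraries added, multimapping reads subtracted, a replicate block, and leaving out each of the 4 compared libraries or sgERH IL-1β replicate 2. Promoters are RefSeq sequences (GRCh38.p14), and gene positions are from GENCODE 44.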

Additional observations from a re-analysis of the deposited data

Results flagged for a closer look

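Among the 85 genes called with IL-1β in sgAAVS1, 2 stood apart in the left-out sgAAVS1 IL-1β replicate 3, used in no comparison here, at more than 2 times the highest of the 4 compared libraries. NINJ1, the membrane-rupture protein, had 381 CPM there, against 88.2 CPM in the highest compared IL-1β library and 26.6 CPM in the highest compared NT library. AL079342.1, with 95.2% multimapping reads, had 161 CPM there, against 68.5 CPM in the highest compared IL-1β library and 31.9 CPM in the highest compared NT library.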

How the results depend on the processing

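No named gene that was called in the main fit or in an alternative changed direction in that alternative. The direction of uncalled genes was not compared. Over named genes and counts of called list members, 525 values were labelled the same, 133 weaker and 25 stronger. For a gene these labels mean an unchanged, lost or gained call. For a list they mean a similar, lower or higher count of called members. For IL-1β in sgAAVS1 (85 calls), DESeq2 called 154, the fit without a filter on low counts 203 and the compared groups alone 276, while adding the left-out libraries gave 12 (all 18), 15 (NT replicate 1) and 16 (IL-1β replicate 3); without 1 replicate the range was 18 to 261. For IL-1β in sgERH (39 calls) the counts were 68 with no filter, 17 with the compared groups alone, 7 with all 18 libraries, 7 with NT replicate 1 and 13 with IL-1β replicate 3. The difference between guides (0 calls) gave 2 by DESeq2, 70 with no filter and 0 to 5 without 1 replicate. IL-1β against IFNγ (85 calls) gave 33 with all 18 libraries, 26 with NT replicate 1, and 54 to 105 without 1 replicate. The cause was not tested. With a replicate block the sgAAVS1 count was 174; same-numbered libraries did not deviate together (r across genes −0.06 to 0.14), and the compared groups share only replicate number 2. At this depth genes under a few reads, among them IL1R1, IL6 and most chemokines, were not testable.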
